A study of Mus musculus with 2 samples.

Results

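miRNAs numbered 5000 and above are the mouse miRNAs whose registry number, the number after miR-, is at least 5000. They were chosen by name alone, with any arm or copy suffix, and made up 177 of the 1247 mouse miRNAs on the array. They were represented by 375 probes and 7080 spots per array, with 2 to 4 probes and 40 spots for each miRNA. Small RNA was measured in c-Kit+ Sca1+ Lineage- cells sorted from adult mouse bone marrow, the gate in which blood stem cells and multipotent progenitors are found. The KO sample carried CreERT and Tif1bf/f, floxed alleles of Tif1b. The WT sample carried CreERT and Tif1bw/w, so both genotypes held the inducible recombinase, on the C57/BL6 background. Age, sex, the number of animals behind each sample and the induction of recombination are not given in the sources used here. There was 1 array per genotype, so every KO minus WT value describes a pair of arrays, with no test and no error across animals.

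miRNAs are short RNAs that guide Argonaute proteins to messenger RNAs, mainly through the seed at bases 2 to 8. Registry numbers are given in order of submission, so high numbers mark late entries, most of them found by deep sequencing. Late entries are often weakly expressed or restricted to few tissues, and some were later recognised as pieces of ribosomal RNA, transfer RNA or small nucleolar RNA. Tif1b, also called Trim28, is a corepressor that works with zinc finger proteins to silence retroelements. The array holds no probe for it.

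The KO array was dimmer, with a mean processed signal of 9.14 against 21.9 on the WT array. A probe counted as measured when more than 50% of its spots were marked well above background by the scanner software, and a miRNA when at least 1 of its probes was. The lowest measured probe had a signal of 21.1 on the KO array and 17.7 on the WT array. Of the fixed marker miRNAs, 2 of 2 for blood cells at large and 4 of 6 for stem and progenitor cells were measured on each array. miR-125a-5p and miR-99b-5p were the stem and progenitor markers measured on neither. The brightest probe of miR-125a-5p was at 20.6 on KO, near the lowest measured probe there, and at 2.15 on WT. That of miR-99b-5p was at -3.03 on KO and -2.54 on WT. The measured markers differed between the arrays themselves. After scaling (defined below), the KO minus WT log2 difference was -4.68 for miR-223-3p, a miRNA of myeloid cells, with signals of 63.6 on KO and 3726 on WT. It was -1.06 for miR-142-3p, and 1.72 for miR-155-5p, 1.16 for miR-196b-5p, 0.57 for miR-10a-5p and 0.03 for miR-126-3p among the stem and progenitor markers. Fewer cells of a type and less RNA per cell cannot be told apart here, and the part of such a difference in the results below was not tested. None of the 2 erythroid, 2 lymphoid, 4 stromal and muscle or 3 liver and brain markers was measured on either array. The lymphoid list held only miR-150-5p and miR-181a-5p. Outside that list, miRNAs that share the number of miR-181a-5p had probes measured on at least 1 array. These were miR-181d-5p, miR-181b-5p and miR-181c-5p, so the result for the lymphoid list does not extend to them.

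Of the 177 late-numbered miRNAs, 9 were measured on the KO array (5.08%) and 10 on the WT array (5.65%). Over all miRNAs of the array the shares were 6.26% for KO and 8.02% for WT. The 9 measured on the KO array were all measured on the WT array as well (5.08%, against 5.77% of all miRNAs). These 9 were miR-5097, miR-5100, miR-5109, miR-5117-5p, miR-5119, miR-5126, miR-6243, miR-6366 and miR-6368. miR-5128 was measured on the WT array only. The other 167 were measured on neither array, so most of the description below concerns a small part of the group. These shares were close to the background.

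The sequences of the measured miRNAs are shown here because their composition and origin are what the values below are set against. RefSeq (GRCm38.p6) held a mature sequence for 145 of the 177 and for 6 of the 10 measured ones. In the RNA sequences below, capitals mark the seed.
miR-5100: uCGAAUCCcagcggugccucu
miR-5119: cAUCUCAUccuggggcugg
miR-5126: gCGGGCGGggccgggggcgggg
miR-5128: cAAUUGGGgcuggcgagauggcu
miR-6366: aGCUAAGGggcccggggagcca
miR-6368: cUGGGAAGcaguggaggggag

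None of these 6 shared its seed with another of them. miR-6368 shared its seed with 3 other mouse miRNAs, of which 2 were on the array and neither was measured. The seeds of the other 5 occurred in no other RefSeq mouse miRNA. For miR-5109, miR-5117-5p and miR-6243 the longest array probe is shown, which is complementary to the RNA it captures. Capitals in the miR-5117-5p probe mark the complement of TGATGA.
miR-5109 probe: tcggattcccctgg
miR-5117-5p probe: taactttattgaTCATCActaac
miR-6243 probe: cgttcagtcataatccc

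Every probe that could be checked, 307 of 307, was the exact complement of the 3′ end of its RefSeq mature sequence. The probes of the group were 9 to 23 bases long. Across the 177 miRNAs, G and C content and length of the longest probe moved in opposite directions (Pearson r = -0.95, Spearman rho = -0.96, across miRNAs, which share the design rule).

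**Figure D1:**
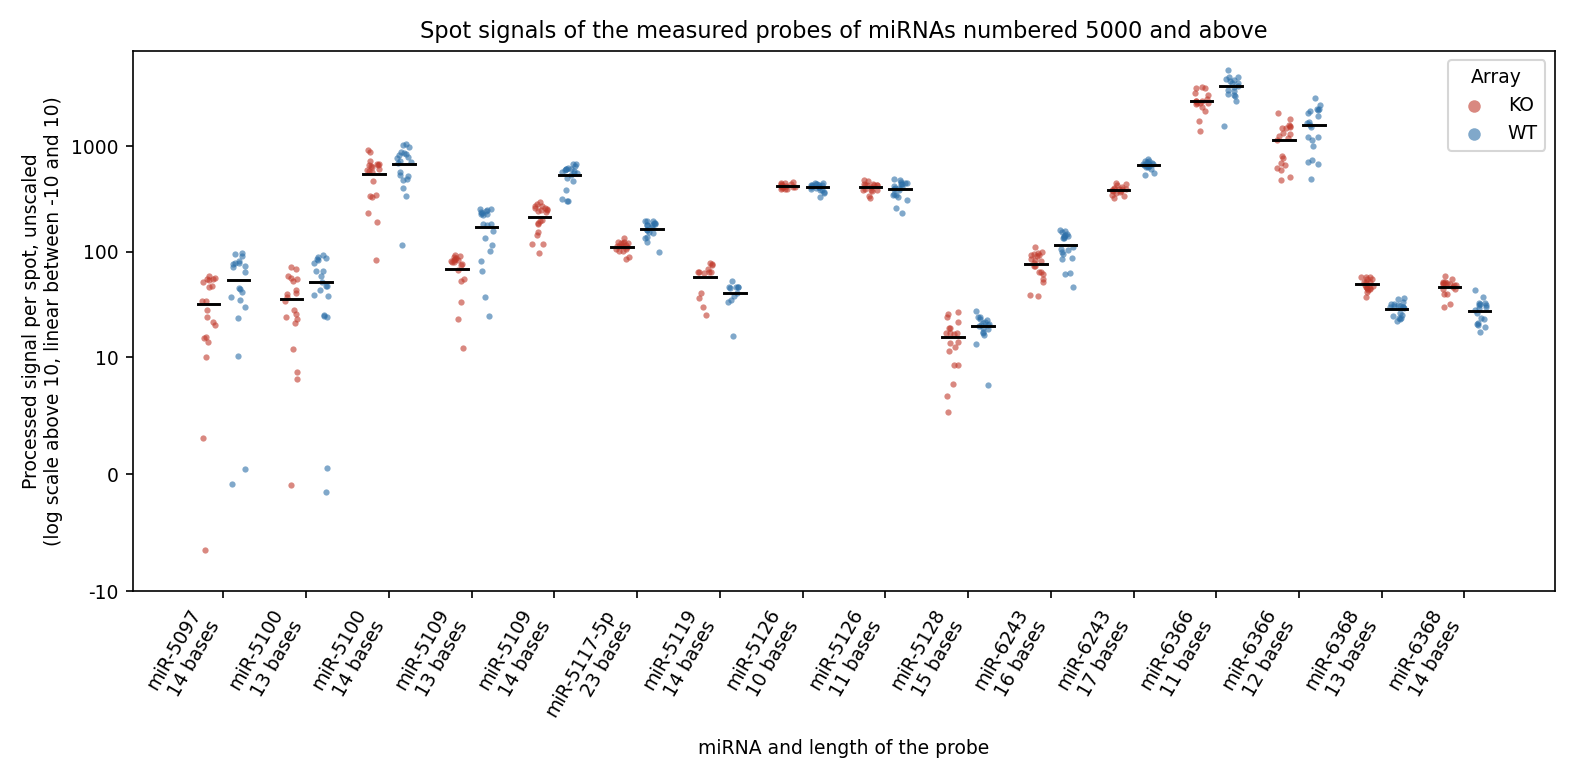
Unscaled processed signal of each spot (vertical axis, log scale above 10 and linear between -10 and 10) for the 16 probes of late-numbered miRNAs measured on at least 1 array, with KO left of WT; black bars are means over the spots kept. In these unscaled signals, both probes of miR-5126 are nearly equal on the arrays. The means of the miR-6368 and miR-5119 probes are higher on the KO array, and those of the remaining probes are lower on it.

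Among the 9 miRNAs measured on both arrays, miR-6368, miR-5119 and miR-5126 were the ones at least 2-fold higher in KO after scaling, and none was at least 2-fold lower. At least 2-fold higher were 3 of the 9, against 13.9% of the 72 miRNAs measured on both arrays, and at least 2-fold lower were 0, also against 13.9%. Above 0 after scaling were 8 of the 9, against 61.1%. These 3 were also the only ones of the 9 brighter on the KO array before scaling, against 9.72% of the 72. With outlier spots kept, miR-5126 was no longer brighter on KO. Scaling divided each array by the 75th percentile of the 113 probes measured on both, 213 for KO and 487 for WT. A difference is the log2 of the scaled KO signal minus that of the scaled WT signal, and the value of a miRNA is the median of this over those of its probes that both arrays measured. The spot SD given with a difference is the SD of this log2 ratio over spot positions, pooled over the probes of the miRNA. The spot SD given after ± with a mean signal is the SD of the unscaled signal over the spots of 1 array. Both are technical spreads within this pair of arrays. Spot means, ranges and positions leave out the spots that the scanner software called outliers, unless all spots are named. The median difference was 0.73 for the 9 and 0.22 for the other 63 miRNAs. Among the others it was 0.61 for the 7 numbered from 3000 to below 4000, 0.80 for the 3 from 1000 to below 3000 and -0.07 for the 46 below 1000. The direction of this median rested on the scaling, and before scaling it was -0.46 for the 9 and -0.97 for the others. A scaling factor shifts all miRNAs alike and cannot alter a value relative to their median. Relative to the median of all 72, which was 0.30, the 9 had a median of 0.43, and 8 of the 9 lay above it. With no filter on dim probes, 3 of the 9 did. At least 2-fold above it were miR-6368 and miR-5119, 2 of the 9, against 8.33% of the 72.

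miR-6368 ranked 2 of 72 from the highest difference. Its mature sequence lies at chr13:28710796-28710816 on the minus strand (GRCm38.p6), within the span of the long noncoding RNA gene 2610307P16Rik. Its probe of 13 bases averaged 48.8 ± 5.90 on the KO array and 28.7 ± 4.28 on the WT array (spot SD, 18 and 19 spots). Its probe of 14 bases averaged 46.4 ± 7.36 on the KO array and 27.6 ± 6.81 on the WT array (spot SD, 18 spots each). The spots of the shorter probe ran from 36.7 to 57.4 on KO and from 21.9 to 36.2 on WT, with no overlap, and those of the longer probe overlapped. With all 20 spots the shorter probe overlapped too, with a lowest KO spot of 2.28. The scaled difference was 1.95 (spot SD 0.35 over 36 positions), or 3.87-fold. Before scaling the KO signal was 1.69 times the WT signal, and 35 of 36 positions were brighter on the KO array. Its WT signals were not far above the lowest measured probe.

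miR-5119 ranked 4 of 72. It lies at chr11:98262638-98262656 on the plus strand, within the span of Cdk12, which encodes a kinase of the RNA polymerase II tail. Of its 3 probes only the longest, of 14 bases, was measured, so the value rests on 1 probe. That probe averaged 57.3 ± 18.02 on the KO array and 40.5 ± 10.03 on the WT array (spot SD, 13 and 11 spots). The scaled difference was 1.69 (spot SD 0.41 over 11 positions), or 3.23-fold, and 10 of 11 positions were brighter on KO before scaling. Spot ranges overlapped, at 25.2 to 78.3 on KO and 15.8 to 52.9 on WT. The probe of 13 bases averaged 12.7 ± 11.1 on KO and 6.90 ± 7.55 on WT (spot SD, 13 spots each), and it was measured on neither array.

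miR-5126 differed from these in that its signals were nearly the same on the arrays. It lies at chr1:84695890-84695911 on the plus strand, within the span of Dner, a transmembrane gene of the Notch pathway expressed mainly in neurons. Its probe of 10 bases averaged 419 ± 21.7 on the KO array and 407 ± 31.8 on the WT array (spot SD, 15 and 19 spots). Its probe of 11 bases averaged 407 ± 41.5 on the KO array and 387 ± 68.8 on the WT array (spot SD, 17 and 20 spots). Before scaling the KO signal was 1.04 times the WT signal, with 17 of 32 positions brighter on KO. With all spots the shorter probe averaged 392.5 on KO and 401 on WT, and 19 of 40 positions were brighter on KO. The scaled difference of 1.25 (spot SD 0.16 over 32 positions), or 2.38-fold, was close to the 1.19 that any probe with equal signals on the arrays receives from the scaling. Relative to the median miRNA it was 0.95, under 2-fold. Spots of the shorter probe had a CV of 5.18% on KO and 7.80% on WT, and 13.5% on KO and 10.2% on WT with all 20 spots, of which 5 on KO and 1 on WT were outliers. CVs among the measured probes of the group reached 63.1%. Both probes consist of C and G only.

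The other 6 miRNAs measured on both arrays lay within 2-fold. miR-6366 was among them. Its probe of 11 bases averaged 2681 ± 601 on the KO array and 3670 ± 866 on the WT array (spot SD, 17 spots each). Its probe of 12 bases averaged 1141 ± 465 on KO and 1585 ± 672 on WT (spot SD, 20 spots each). The KO array was thus dimmer on both probes, but by less than the 0.437 used for scaling. The KO signal of miR-6366 was 0.725 times the WT signal, beside a median of 0.751 over the 20 control probes. The scaled difference was 0.73 (spot SD 0.65), and without scaling it was -0.46. The mature sequence lies at chr16:18165093-18165114 on the minus strand, in no other gene of the annotation used.

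miR-5100 lies at chr11:60728698-60728718 on the plus strand, within the span of Mief2, which encodes an adaptor of mitochondrial fission. Its probe of 14 bases averaged 540 ± 223 on the KO array and 679 ± 245 on the WT array, and that of 13 bases 35.2 ± 20.6 on KO and 51.9 ± 28.5 on WT (spot SD, 20 spots each). The scaled difference was 0.75 with a spot SD of 0.84, so it was smaller than the technical spread. Before scaling it was -0.44.

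miR-6243 differed by 0.51 (spot SD 0.39). Its probe of 17 bases averaged 385 ± 34.2 on the KO array and 661 ± 57.1 on the WT array (spot SD, 17 spots each), with no overlap between these spots. With all 20 spots they overlapped, since the lowest WT spot was at 277 and the highest KO spot at 446. Its probe of 16 bases averaged 76.1 ± 20.4 on KO and 115 ± 34.3 on WT (spot SD, 20 spots each). The spots were thus lower on the KO array before scaling (-0.69), and the value was positive only after scaling.

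miR-5117-5p differed by 0.63 (spot SD 0.22 over 16 positions) and rests on 1 probe. That probe, of 23 bases, averaged 111 ± 12.6 on the KO array and 164 ± 27.3 on the WT array (spot SD, 17 and 18 spots). It was lower on KO before scaling, at -0.56. The probe of 22 bases averaged 11.2 ± 4.16 on KO and 17.9 ± 6.39 on WT (spot SD, 20 spots each). With 0% of spots well above background on KO and 40% on WT, it was measured on neither array. Together with miR-6368, miR-5119 and miR-5126, miR-5117-5p was among the 4 of the 9 whose scaled difference exceeded 2 spot SDs, against 23.6% of the 72. Relative to the median miRNA, its 0.33 did not.

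miR-5109 was the lowest of the 9, at -0.12 (spot SD 0.31), and the only one below the median of all miRNAs. Its probe of 14 bases averaged 213 ± 60.2 on the KO array and 531 ± 122 on the WT array (spot SD, 20 and 19 spots). Its probe of 13 bases averaged 69.0 ± 24.2 on KO and 170 ± 76.0 on WT (spot SD, 18 and 20 spots). Spots of the longer probe did not overlap once 1 outlier was left out, with a highest KO spot of 293 and a lowest WT spot of 302. The outlier, on WT, was at 176. miR-5109 was brighter on KO in 0 of the 37 positions kept on both arrays, and in 1 of all 40. Before scaling the KO signal was 0.404 times the WT signal, close to the 0.437 by which the arrays were scaled. The KO percentile used for scaling, 213, was the signal of the miR-5109 probe of 14 bases itself. The scaled KO signal of that probe was thus fixed by the scaling, so this closeness was in part built in.

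miR-5097 differed by 0.44 with a spot SD of 1.71, which is a spread of single positions and not an error of the mean. After scaling 15 of 19 positions were above 0, and before scaling 2 were brighter on the KO array. The difference before scaling was -0.75, so the direction of miR-5097 rested on the scaling. Its measured probe, of 14 bases, averaged 31.7 ± 20.0 on the KO array and 53.4 ± 31.0 on the WT array (spot SD, 20 spots each). It passed the threshold with 60% of spots well above background on KO and 85% on WT. Some of its spots were below 0 on each array.

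**Figure D2:**
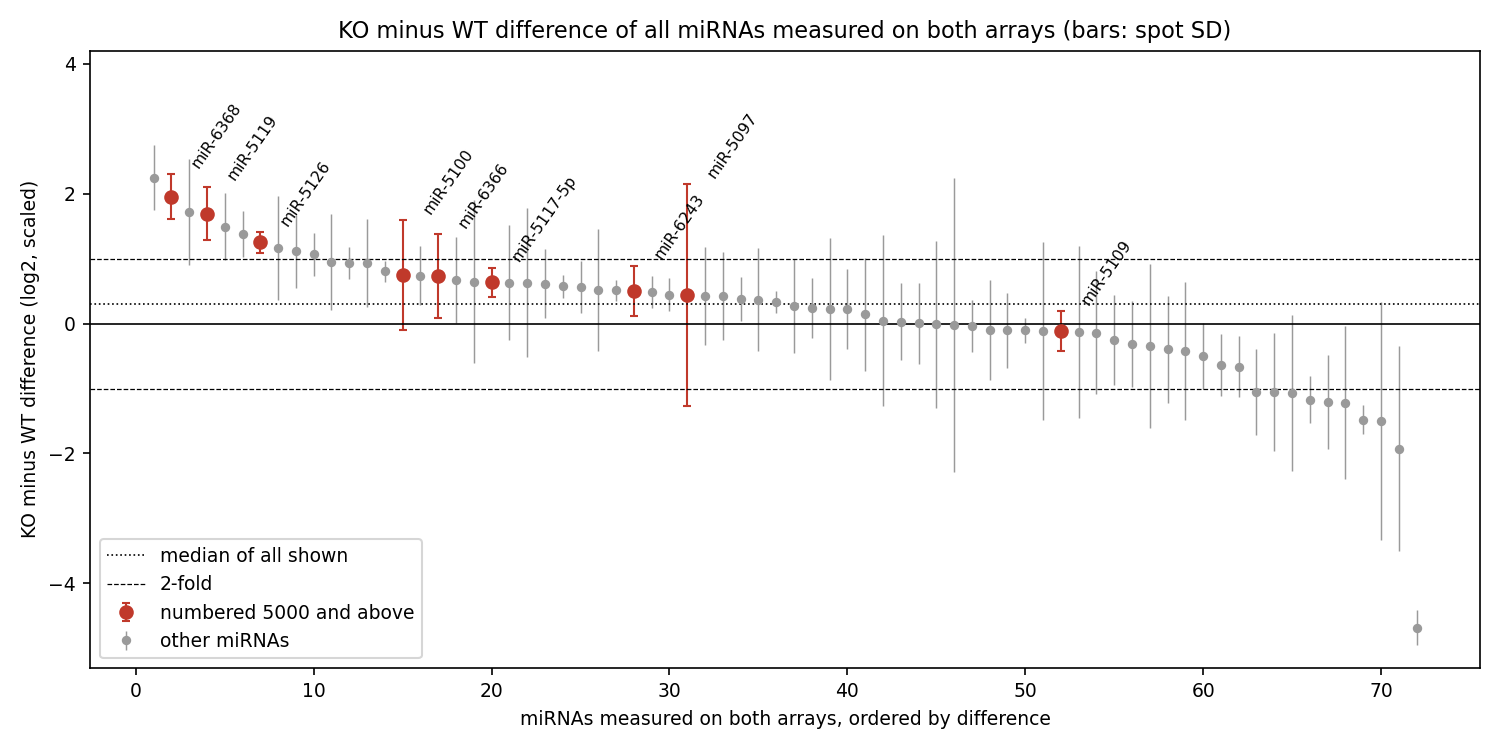
Scaled KO minus WT difference (vertical axis, log2) of the 72 miRNAs measured on both arrays, in order of difference; error bars are the spot SD, red points are the 9 miRNAs numbered 5000 and above. The red points run from 1.95 (miR-6368) to -0.12 (miR-5109), and 8 of 9 lie above the median of 0.30.

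miR-5128 stood at the edge of detection. It lies at chr2:37688212-37688234 on the minus strand, within the span of Strbp, which encodes an RNA-binding protein of germ cells. Its probe of 15 bases averaged 15.4 ± 6.33 on the KO array, where 21.1% of spots were well above background, and 19.6 ± 4.40 on the WT array, where 61.1% were (spot SD, 19 and 18 spots). No fold is given, since the lowest signal measured on the KO array exceeded the WT signal after scaling. Among the probes just outside the threshold was that of miR-5105, of 11 bases, at 5.56 ± 3.83 on KO and 17.8 ± 5.99 on WT (spot SD, 17 and 20 spots). None of its spots was well above background on KO, and 35% were on WT.

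The remaining miRNAs gave signals around 0. Over the 354 probes of the 167 miRNAs measured on neither array, the median signal was -3.53 on KO and -3.05 on WT. Signals below 0 were found for 286 of these probes on KO and 288 on WT. Besides miR-5105, the brightest by the mean of the arrays were miR-6365 (6.67 on KO and 8.13 on WT), miR-5622-3p (4.31 and 5.80) and miR-6395 (5.83 and 3.43). At this signal a KO minus WT difference was not detectable. The numbers on either side of the dividing line were alike in this: neither miR-5046, the lowest number included, nor miR-3971, the highest below it, was measured on either array.

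The measured miRNAs were unevenly spread over the numbers. From 5000 to below 5200 lay 45 miRNAs, of which 6 were measured on KO and 7 on WT. Of the 8 from 6200 to below 6300, 1 was measured on each array, and of the 89 from 6300 to below 6500, 2 were. None of the 28 from 5600 to below 5800 and none of the 7 from 6500 to below 6600 was measured. The late-numbered miRNAs were measured at 5.65% on at least 1 array, against 6.21% of those numbered from 3000 to below 4000, 3.15% of those from 1000 to below 3000 and 9.77% of those below 1000. These shares are descriptions and were not tested.

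Base composition of the probe moved with detection, and in the late-numbered group the pattern ran opposite to the other miRNAs. With a G and C content of 60% or more in the longest probe, 8 of 71 late-numbered miRNAs were measured on at least 1 array (11.3%), against 13 of 274 others (4.74%). Under 60%, 2 of 106 late-numbered miRNAs were measured (1.89%), against 83 of 796 others (10.4%). The 2 were miR-5117-5p, at 26.1%, and miR-6243, at 47.1%. None of the 49 late-numbered miRNAs with 50% to 60% was measured, against 30 of 324 others. The part of base composition in detection was not tested apart from probe length, which runs against it. The median G and C content was 69.0% for the 10 measured on at least 1 array and 53.3% for the 167 measured on neither.

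**Figure D3:**
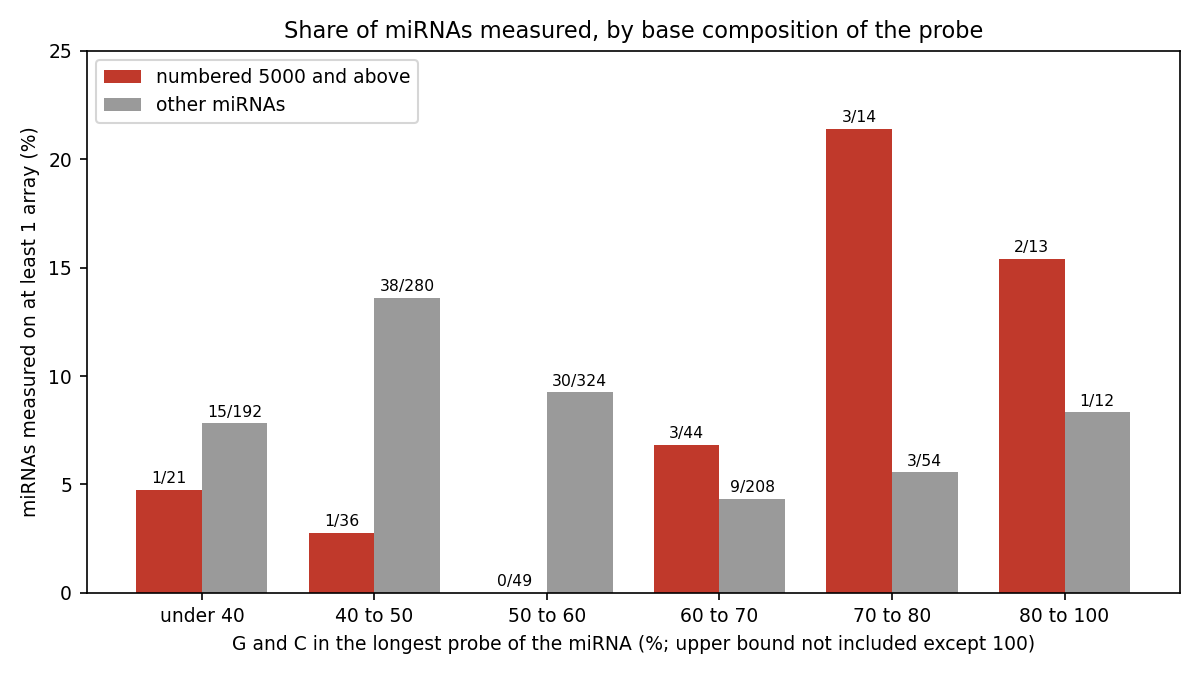
Percentage of miRNAs measured on at least 1 array (vertical axis) in classes of G and C content of their longest probe (horizontal axis), for miRNAs numbered 5000 and above (red) and all others (grey); labels give measured over total. The red bars are highest from 70% upwards, the grey bars from 40% to 50%.

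The KO minus WT difference moved weakly with base composition, and about as much with probe length. Across the 72 miRNAs measured on both arrays, Pearson r between G and C content and difference was 0.28 and Spearman rho 0.25. Among the 9 late-numbered miRNAs r was 0.36 and rho 0.62, and among the other 63 r was 0.18 and rho 0.14. Between length of the longest probe and difference, r was -0.32 and rho -0.32 across the 72. For length they were -0.23 and -0.33 among the 9, and -0.25 and -0.24 among the other 63. Base composition and length were not tested apart. These are descriptions across miRNAs that share arrays and scaling. With 60% or more, the median difference was 0.75 for 7 late-numbered miRNAs and 0.61 for 9 others. Under 60% it was 0.57 for the 2 late-numbered miRNAs and 0.02 for 54 others. All 10 miRNAs that were at least 2-fold lower in KO had a probe under 60%, and none was late-numbered. A G and C content of 60% or more was found in 7 of the 9 late-numbered miRNAs, against 9 of the other 63. Its part in the median of the late-numbered miRNAs was not tested.

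**Figure D4:**
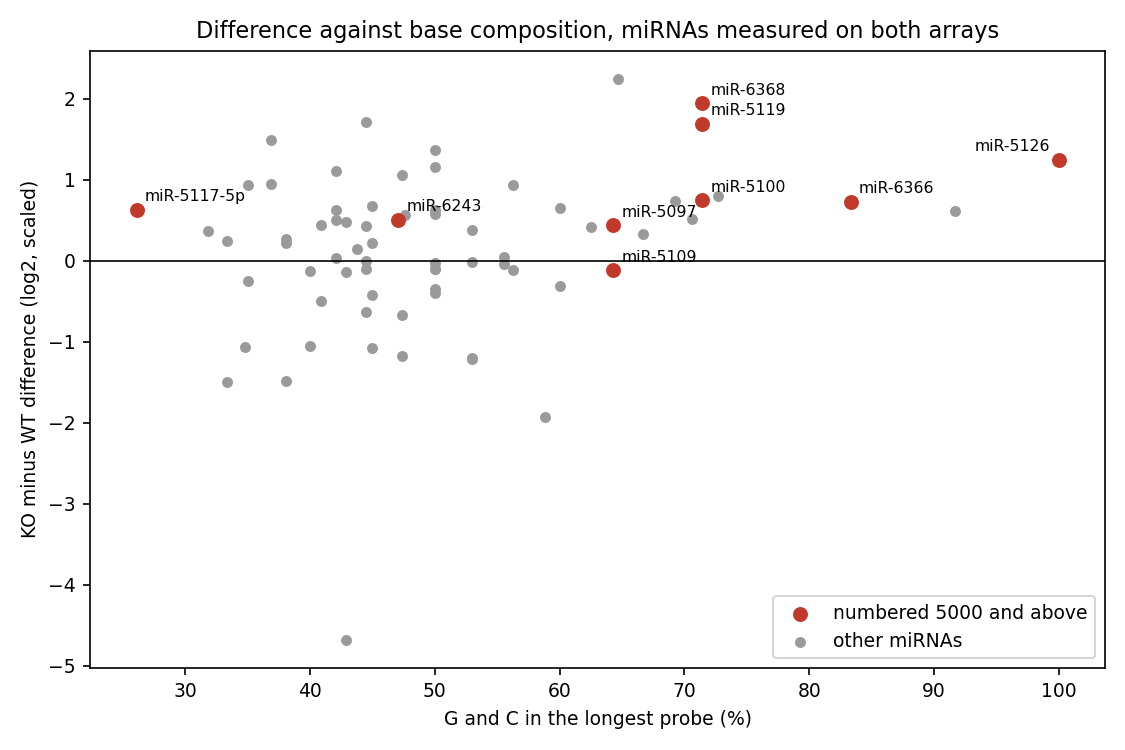
Scaled KO minus WT difference (vertical axis, log2) against the G and C content of the longest probe (horizontal axis, percent) for the 72 miRNAs measured on both arrays; red points are numbered 5000 and above. Of the 9 red points 7 lie at 60% or more, and from 60% upwards the lowest point of either colour is at -0.31.

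By position, few of the late-numbered miRNAs lay in annotated structural RNA. Of the 145 with a RefSeq position, 0 overlapped any of the 65 rRNA, 430 tRNA or 1004 snRNA genes of the annotation, and 1 overlapped a snoRNA gene. Among the 872 others with a position, 0 overlapped an rRNA gene, 1 a tRNA gene and 4 a snoRNA gene. The span of a protein-coding gene covered 93 of the 145 (64.1%), against 54.8% of the others, and that of a long noncoding RNA gene 16 (11%), against 21.1%. Exons and introns were not told apart. Sequences of ribosomal and transfer RNAs and the genome were not used here, so fragments of these RNAs that also match elsewhere would not be seen by position. miR-5097, miR-5109 and miR-6243 had no RefSeq entry, and no gene of the annotation lay at the positions the array gives for them, whose build is not settled.

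The late-numbered miRNA inside a snoRNA gene was miR-5121, at chr7:45126925-45126945 on the minus strand. It lies in Snord33, a box C/D snoRNA gene at chr7:45126864-45126945, within Rpl13a, a gene for a ribosomal protein. Its sequence is shown with capitals on UGAUGA, the core of box C of this snoRNA class.
miR-5121: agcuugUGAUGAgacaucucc

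It was measured on neither array, with probe means of 0.331 ± 2.31 and -3.93 ± 4.13 on KO and 2.75 ± 3.11 and -0.725 ± 2.62 on WT (spot SD, 15 and 20 spots on KO, 17 and 19 on WT). The letters TGATGA also occur in the target of miR-5117-5p, in the stretch marked above. RefSeq keeps Mir5117 as a synonym of Gas5, a noncoding host gene of several box C/D snoRNAs, at chr1:161034601-161038539. The array annotation lists 2 positions for the probe, and the file headers name an older build. For the plus-strand miRNAs that could be checked, however, the last position listed was that of GRCm38.p6. The last position listed for this probe, chr1:161037360-161037382, lies within the Gas5 span and in no snoRNA gene of the annotation. The 6 letters were found in 3 of 177 late-numbered targets (1.69%), against 11 of 1247 over all miRNAs (0.882%), and in 12.4% of 32851 promoter windows of 300 bases on either strand. A window of 300 bases offers more places for a match than a probe target, so its share is not a base rate. A match of so few letters is a description.

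The precursor of miR-5100 holds the letters GTTCGANNC, the core of the internal promoter (B box) and T arm of tRNA genes, which overlap the start of the mature sequence. Its hairpin (chr11:60728663-60728726, plus strand) is shown with these letters in capitals.
Mir5100: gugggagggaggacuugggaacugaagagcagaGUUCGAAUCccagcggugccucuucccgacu

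The letters occurred in 5 of 1005 mouse hairpins on the given strand (0.498%), 2 of them from late-numbered miRNAs (1.64% of 122 hairpins), and in 0.843% of promoter windows on either strand. The other late-numbered hairpin was that of miR-6364, which was not measured. Windows are longer than the hairpin shown and were read on both strands, so their share is not a base rate for hairpins. A 3′ end of CCA, the letters that close mature tRNAs, was found in the probe targets of 5 of the 177 (2.82%), against 20 of all 1247 (1.60%). miR-5097 and miR-6366 were the measured ones among the 5.

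Some probe targets were common sequences. Each was counted in 32851 RefSeq promoter windows (GRCm38.p6, 250 bases before to 50 after a gene start) on both strands. The target of the miR-5126 probe of 10 bases occurred in 1740 windows (5.30%) and that of 11 bases in 585 (1.78%). The shorter target also occurs in the hairpin of Mir6403. The other 14 measured probes occurred in 0 to 16 windows, and 7 of all 16 in none. Of 153 measured probes of other miRNAs, 129 occurred in none, and the largest count was 166. The sets of probes were not matched for length, on which such counts depend, so they are not like for like. In no case was a measured late-numbered target found in another RefSeq mature miRNA. Whether RNAs other than the named miRNAs contributed to the signals was not tested.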

How the data were processed

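Small RNA was measured on 2 Agilent 1-colour miRNA arrays, 1 of KO and 1 of WT cells. The labels' protocols give miRNeasy columns for isolation and 100 ng of total RNA for the Cyanine 3 reaction. The deposited files hold linear intensity per spot. The submitters' processing notes name Agilent Feature Extraction 10.7.3. According to the file headers, spatial detrending was on and other background correction off, and they record no step that matched the arrays to each other. The value table matched the total gene signal within 0.1% for all 1247 miRNAs in both columns, unlogged and unscaled, and the median of each column was 0.1. Precision is limited by the number of arrays.

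Processed signals were averaged per probe, leaving out outlier spots (4.59% on KO and 5.16% on WT). No spot was saturated. Scaling, detection and the difference are defined in the text above. Named miRNAs were those measured on at least 1 array, the 4 brightest of the rest and those inside annotated structural RNA. The miRNAs, lists and rules were chosen with earlier results of these data known. The procedure was tested on simulated data, with the differences first centred on the miRNAs simulated as unchanged. That test therefore does not bear on the scaling, on which the direction of several differences rested. Sequences are RefSeq's, by miRNA name, or the array's. In the array's own positions, all 126 checked probes on the minus strand were mirrored within the hairpin, and 162 of 162 on the plus strand lay within 1 base of RefSeq, so RefSeq positions are given where they exist. The limma package (3.58.1, in R 4.3.3) served for the normexp alternative, and Python 3.11.15 with pandas 2.3.3 for the rest. The alternatives varied scaling, background correction, spot and detection filters, and the source of the values.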

Additional observations from a re-analysis of the deposited data

How the results depend on the processing

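Results were recomputed under 13 alternatives set beforehand and 2 chosen after seeing the data (without rows above 320, scaling on positive controls). No paired analysis was possible because there was a single array per genotype. Relative to the median of all miRNAs, the median of the late-numbered miRNAs stayed above 0 under all 15, and miR-6368 and miR-5119 were at least 2-fold above it under 14, the exception being normexp (0.77 and 0.72). The number of the 9 above it was 3 with no filter on dim probes, 7 of the 8 still measured with the stricter filter, and 8 otherwise. A change of the scaling factor alone cannot alter these relative values, so the alternatives that change only this factor do not test them. Total gene signal and the value table hold the same values and are not separate checks. Of 20 control probes, 1 had a KO over WT ratio below the 0.437 used (0.411) and 19 above it (0.498 to 0.995, median of all 20 0.751). miR-6368, miR-5119 and miR-5126 stayed above 0 under all 15, and 5 others turned with the scaling. With the 75th percentile taken over every miRNA probe, then without scaling, then with scaling on positive controls, the median of the 9 was -0.36, -0.46 and -0.12 (0.73 as reported), the number at least 2-fold higher 0, 0 and 1 (3), and the number lower 1, 1 and 0 (0); of all 72, 1, 1 and 2 were higher and 31, 32 and 18 lower. In the same order miR-5097 was at -0.65, -0.75 and -0.40, miR-5100 at -0.34, -0.44 and -0.10, miR-5117-5p at -0.46, -0.56 and -0.21, miR-6243 at -0.58, -0.69 and -0.34 and miR-6366 at -0.36, -0.46 and -0.12. Total gene signal and the value table, with their own detection call, each gave 6 of 10 higher, a median of 1.27 (29 of 86 higher, 5 lower and a median of 0.58 over all miRNAs) and 0.36 for miR-5109, which normexp put at 0.025. Without a filter, 48 of the 177 had a signal above 0 on both arrays, 25 at least 2-fold higher and 1 lower, beside 227 and 53 of 477 over all miRNAs; the added miRNAs are dim by construction. The cause of the other shifts was not tested. The bound of miR-5128 stayed under 1 under the scalings and the looser filter for which it was computed (up to 0.928).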

Other observations

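Seeds were shared within the group by few miRNAs: the 145 with a RefSeq mature sequence held 131 distinct seeds, and 10 seeds were held by more than 1 miRNA, 24 miRNAs in all.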
